A study of Homo sapiens with 32 samples.

Results

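Chromatin loops at 6 clusters of imprinted genes are described here. They were chosen by position: a loop was taken when at least 1 of its anchors lay within 250 kb of the 5′ end of IGF2, H19, KCNQ1, CDKN1C, DLK1, MEG3, GNAS, MEST, PEG3 or PEG10 in the hg38 annotation, and its score played no part. Of the 45629 loops in the 4 lists, 139 met this rule. The series asked how hyperosmotic stress changes contacts in the genome, and it measured them with in situ Hi-C, which ligates DNA ends that lie close together in the nucleus. HEK293 is a line of human embryonic kidney cells. The 4 lists come from WT cells without treatment (control) or with 200 mM sorbitol for 1 h, and from eGFP-YAP cells, which carry the transcriptional co-activator YAP joined to a green fluorescent protein, without treatment or with the same sorbitol treatment. The design text adds a serum starvation of 1 h before sorbitol for the eGFP-YAP cells. The labels call the cells HEK293 and the growth protocol HEK293T, and the files hold no expression values against which the cell type could be checked.

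The labels name 3 samples for each WT condition and 4 for each eGFP-YAP condition, but each condition has a single pooled list. A difference between lists therefore has no replicate spread, and all intervals below are 95% intervals for counting error among loops, which are not independent where loops share anchors. The lists held 15180 loops (WT control), 5906 (WT sorbitol), 18966 (eGFP-YAP control) and 5577 (eGFP-YAP sorbitol), and their sequencing depth is unknown, so fewer contacts and fewer reads cannot be told apart. Each line's lists also bear their own source name, so line and source cannot be told apart either. The lists do not separate the parental copies of a chromosome.

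Imprinted genes are expressed mainly from the copy inherited from a single parent, and which copy is used is marked by DNA methylation at imprinting control regions. Such genes lie in clusters in which protein-coding genes share control regions and enhancers with long non-coding RNAs. At several clusters, H19 and IGF2 being the textbook case, the insulator protein CTCF binds only the unmethylated copy of the control region. CTCF also marks the ends of many chromatin loops, typically with its motifs at the ends pointing towards each other.

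The anchors of loops that recurred in 3 or 4 lists held these matches to the CTCF consensus motif. The 14 bases in capitals are the match, read 5′ to 3′ on the strand named, in hg38. Outside genes means outside protein-coding genes and the cluster genes considered here, and other non-coding genes were not checked.
KCNQ1 intron, minus strand, no mismatch, chr11:2531556-2531569: gcaaatagCCACCAGGTGGCGCacagaccc
KCNQ1 intron, plus strand, 1 mismatch, chr11:2532838-2532851: tcttgattCCAGCAGAGGGAGGctgtgcag
Beside CDKN1C, outside genes, plus strand, 1 mismatch, chr11:2886614-2886627: caccctgcCCAGTAGATGGAACaggggctg
Beside CDKN1C, outside genes, minus strand, no mismatch, chr11:2888550-2888563: ccatctggCCAGCAGAGGGCGCagaaggac
LSP1 intron, plus strand, 1 mismatch, chr11:1875683-1875696: tgccatgcCCAGCAGGGTGCAGccacaacc
LSP1 exon, plus strand, 1 mismatch, chr11:1876571-1876584: aggagctgCCTGCAGGGGGCAGagtcggga
LSP1 intron, plus strand, no mismatch, chr11:1882616-1882629: tgctcccaCCAGCAGGGGGCGCtttgactc
IGF2 intron, minus strand, 1 mismatch, chr11:2156631-2156644: gggtgcgaCCAGCAGATGGCATcagagcct
WDR25 intron, plus strand, 1 mismatch, chr14:100383860-100383873: cctcatgaCCAGAAGAGGGCGCagtgggcc
WDR25 intron, plus strand, 1 mismatch, chr14:100385319-100385332: catattcgCCACTAGGGTGCACagtaagac
Between BEGAIN and DLK1, outside genes, minus strand, 1 mismatch, chr14:100645908-100645921: aagctttgTCAGCAGAGGGCGCtggagaga
Between BEGAIN and DLK1, outside genes, minus strand, 1 mismatch, chr14:100653519-100653532: cagggcggCCACCAGGAGGCAGtgtctccc
Between BEGAIN and DLK1, outside genes, minus strand, 1 mismatch, chr14:100654958-100654971: gcctcgggCCACAAGGGGGCAGaggcggcc
MEG3 exon, plus strand, no mismatch, chr14:100851316-100851329: ggttttgcCCACCAGGGGGCAGcagagggt
Far end of the MEG3 loop, outside genes, minus strand, 1 mismatch, chr14:101628605-101628618: gctcgcggCCGGCAGGGGGCAGgatgtccc
GNAS intron, plus strand, 1 mismatch, chr20:58870457-58870470: gctcctccCCACCAGAGGTCAGcagagagc
NELFCD intron, minus strand, 1 mismatch, chr20:58983218-58983231: gcttgaacCCAGGAGATGGCAGttgcagcg

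The clusters differed in how many loops they held in the control lists and in how many they held in the sorbitol lists. WT control held 46 of these loops (0.303% of its list), WT sorbitol 23 (0.389%), eGFP-YAP control 51 (0.269%) and eGFP-YAP sorbitol 19 (0.341%). The cluster of IGF2, H19, KCNQ1 and CDKN1C on chromosome 11 held 14, 12, 14 and 9 loops in that order. The DLK1-MEG3 cluster on chromosome 14 started from as many, with 14 in WT control and 13 in eGFP-YAP control, and had 4 and 2 in the sorbitol lists. GNAS, on chromosome 20, had 9 and 8 control loops and 5 loops in each sorbitol list. MEST, on chromosome 7, had 4 loops in WT control, 2 in WT sorbitol, 9 in eGFP-YAP control and 3 in eGFP-YAP sorbitol. PEG10, also on chromosome 7, had 4 and 6 control loops, PEG3 on chromosome 19 had 1 in each control list, and neither had a loop in either sorbitol list.

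**Figure D1:**
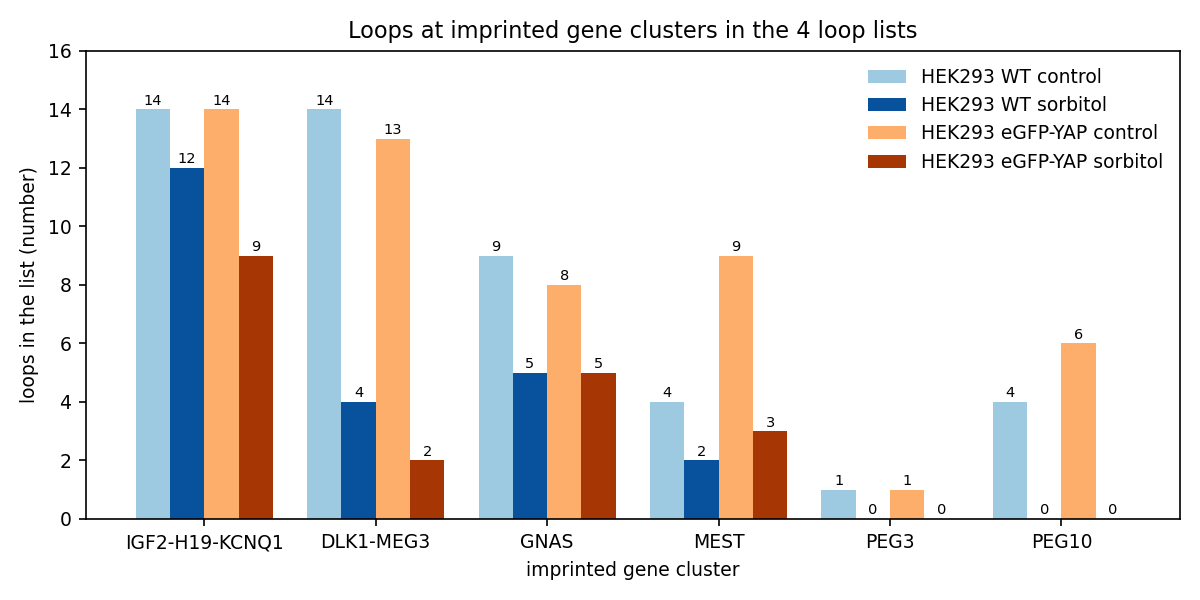
Number of loops (y axis) at each imprinted gene cluster (x axis) in the 4 pooled lists, 1 bar per list, with no error bars because each condition has 1 list. In each line the IGF2-H19-KCNQ1 and DLK1-MEG3 clusters have nearly equal control bars (14 and 14, 14 and 13), while with sorbitol they have 12 and 4 loops in WT and 9 and 2 in eGFP-YAP.

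Since the sorbitol lists are shorter throughout, the counts were set against the lists. At the 6 clusters WT sorbitol had 0.50 loops for each control loop (interval 0.289 to 0.842), against 0.389 (0.377 to 0.401) for all WT loops. In eGFP-YAP this ratio was 0.373 (0.208 to 0.642) at the clusters and 0.294 (0.285 to 0.303) for all loops, so in both lines the interval of the clusters held the value of the list. The IGF2-H19-KCNQ1 cluster had the highest ratio of the 6 in both lines, 0.857 (0.362 to 2.00) in WT and 0.643 (0.245 to 1.59) in eGFP-YAP. DLK1-MEG3 had 0.286 (0.0685 to 0.910) and 0.154 (0.0169 to 0.680). In each line the intervals of both clusters overlap, and the ratio of all loops lies inside both. At PEG10 the ratio was 0 with an upper bound of 1.51 in WT and 0.849 in eGFP-YAP, so at these counts an absence of loops with sorbitol could not be told from the shorter lists.

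Loops were called the same when both anchors lay within 10 kb of each other. In WT, 9 of the 46 control loops at the clusters (19.6%, 10.7 to 33.2) were called again with sorbitol, against 7.81% of all WT control loops. They were 4 of 14 at IGF2-H19-KCNQ1, 2 of 14 at DLK1-MEG3, 2 of 9 at GNAS and 1 of 4 at MEST. In eGFP-YAP, 6 of 51 (11.8%, 5.51 to 23.4) were called again, against 9.28% of the list, with 2 of 14 at IGF2-H19-KCNQ1, 1 of 13 at DLK1-MEG3, 2 of 8 at GNAS and 1 of 9 at MEST. The share in WT lay above that of its list by more than counting error and the share in eGFP-YAP did not. The WT excess was lost without the IGF2-H19-KCNQ1 cluster (15.6%, 6.86 to 31.8) and with a window of 500 kb (13.4%, 7.23 to 23.6), where the intervals held 7.81%.

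The loops of the imprinted clusters recurred between the untreated lines about as often as other loops did. Of the WT control loops, 18 of 46 (39.1%, 26.4 to 53.5) had a partner in eGFP-YAP control, against 40.2% of the list, and 18 of 51 eGFP-YAP control loops (35.3%, 23.6 to 49.0) had one in WT control, against 32.2%. With sorbitol, 5 of the 23 WT loops had a partner in eGFP-YAP sorbitol (21.7%, against 24.2% of the list) and 5 of the 19 eGFP-YAP loops had one in WT sorbitol (26.3%, against 25.7%). In all 4 lists there were 3 loops: they made up 3 of 46 loops in WT control (against 2.71% of the list), 3 of 23 in WT sorbitol (against 6.47%), 3 of 51 in eGFP-YAP control (against 2.14%) and 3 of 19 in eGFP-YAP sorbitol (against 7.32%). Loops present in both controls and in neither sorbitol list were 10 of the 46 counted from WT control (21.7%, 12.3 to 35.6, against 31.1% of the list). Counted from eGFP-YAP control they were 11 of the 51 (21.6%, 12.5 to 34.6, against 24.7%), and both intervals held the value of the list. Loops in 1 list only were 24 of 46 in WT control (52.2%, against 56.2% of the list) and 12 of 23 in WT sorbitol (52.2%, against 56.8%). In eGFP-YAP they were 29 of 51 in control (56.9%, against 61.9%) and 9 of 19 with sorbitol (47.4%, against 50.6%).

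Of the sorbitol loops, 14 of 23 in WT (60.9%, 40.8 to 77.8) had no partner in their own control, against 79.9% of the list. In eGFP-YAP these were 13 of 19 (68.4%, 46.0 to 84.6), against 68.4%. Of the 14 in WT, 12 had at least 1 anchor within 10 kb of an anchor of a control loop (85.7%, 60.1 to 96.0, against 70.6% of such loops in the list), and 3 of these had both (21.4%, 7.57 to 47.6, against 20.3%). Of the 13 in eGFP-YAP, all 13 had at least 1 (100%, 77.2 to 100, against 76.2%), and 4 had both (30.8%, 12.7 to 57.6, against 24.9%). Only the eGFP-YAP share with at least 1 lay above its list by more than counting error, and by a narrow margin.

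Span was measured from anchor to anchor. The median was 342.5 kb (240 to 510) in WT control and 330 kb (220 to 455) in eGFP-YAP control, against 240 and 260 kb for the lists, values that the intervals reached (WT) or held (eGFP-YAP). With both anchors required in the window the control medians were 140 and 215 kb. In the sorbitol lists it was 230 kb (85 to 495) and 315 kb (145 to 475), against 215 and 230 kb. PEG10 held the longest control loops by median, 930 kb in WT and 675 kb in eGFP-YAP, and IGF2-H19-KCNQ1 the shortest in WT control, 175 kb. Each loop carries a peak score from the loop caller, given here as its percentile within its own list, since the score has no fixed scale. The median percentile of the clusters' loops was 62.5, 60.5, 56.9 and 54.2 in WT control, WT sorbitol, eGFP-YAP control and eGFP-YAP sorbitol. The IGF2-H19-KCNQ1 loops stood higher in the control lists, with medians of 87.2 in WT and 92.5 in eGFP-YAP, than in the sorbitol lists, with 64.3 and 50.9, and their ranges overlapped (6.84 to 99.9 in WT control and 6.89 to 97.6 in WT sorbitol).

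KCNQ1 encodes a potassium channel subunit and CDKN1C an inhibitor of cyclin-dependent kinases. In the IGF2-H19-KCNQ1 cluster the loop found in all 4 lists joined an intron of KCNQ1 to the region of CDKN1C. In WT control it ran from chr11:2530001-2535000 to chr11:2890001-2895000 at the 99.2nd percentile, and in WT sorbitol to chr11:2880001-2885000 at the 89.3rd. In eGFP-YAP control it ran from the same KCNQ1 anchor to chr11:2885001-2890000 at the 99.9th percentile, and in eGFP-YAP sorbitol from chr11:2535001-2540000 to chr11:2880001-2885000 at the 89.7th. The anchor at CDKN1C thus lay 5 to 10 kb nearer to KCNQ1 in the sorbitol lists than in the controls, a step of 1 or 2 bins of 5 kb. Only the eGFP-YAP control anchor held the CDKN1C 5′ end (2885775) and the motifs beside it, on both strands, whereas the KCNQ1 anchor with its motifs on both strands was the same in 3 lists. The sorbitol anchors covered part of the body of CDKN1C, while the WT control anchor lay beyond its 5′ end and outside the gene.

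A second reach to the region of CDKN1C came from the border of TRPM5, a cation channel gene of taste cells, and KCNQ1. It scored at the 96.7th percentile in WT control (chr11:2435001-2440000 to chr11:2890001-2895000, outside CDKN1C) and at the 99.3rd in eGFP-YAP control (chr11:2425001-2430000 to chr11:2885001-2890000), where it held the CDKN1C 5′ end. In WT sorbitol the partner of the WT control loop ran from chr11:2440001-2445000, which holds the 5′ ends of both KCNQ1 (2444654) and TRPM5, to CDKN1C at the 46.7th percentile. In eGFP-YAP sorbitol the loop from that same KCNQ1 anchor ended at chr11:2785001-2790000, still inside KCNQ1, at the 50.9th percentile, 95 kb short of CDKN1C. It was 1 of 4 eGFP-YAP sorbitol loops that ended inside KCNQ1 and had no partner in any other list, the others at the 29.2nd, 88.0th and 83.8th percentile. Of all eGFP-YAP sorbitol loops, 50.6% were in 1 list only. WT control had another loop at the CDKN1C 5′ end, from chr11:2680001-2685000 inside the KCNQ1OT1 unit, an antisense RNA of the KCNQ1 locus, at the 58.4th percentile. WT sorbitol had a loop wholly inside KCNQ1OT1, 35 kb long (chr11:2620001-2625000 to chr11:2655001-2660000), at the 22.6th percentile.

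On the other side, IGF2, which encodes a fetal growth factor, was joined to the muscle and lymphocyte genes beyond H19. The loop from LSP1, an actin-binding protein of leukocytes, to IGF2 was in 3 lists, at the 97.0th percentile in WT control (chr11:1880001-1885000 to chr11:2145001-2150000), the 89.4th in WT sorbitol (chr11:1875001-1880000 to chr11:2155001-2160000) and the 99.4th in eGFP-YAP control (chr11:1880001-1885000 to chr11:2150001-2155000). The WT sorbitol anchor is the only one in the 4 lists that holds the IGF2 5′ end of the annotation (2158391), and its minus-strand motif faces the pair of plus-strand motifs, each with 1 mismatch, in the LSP1 anchor of that loop. The nearest eGFP-YAP sorbitol loop was 40 kb away from the WT control one. A neighbouring loop from TNNT3, the fast skeletal troponin T gene, to IGF2 was in eGFP-YAP control (98.6th percentile), WT sorbitol (97.6th) and eGFP-YAP sorbitol (95.1st), and was the highest-scoring loop of the cluster in both sorbitol lists. The nearest WT control loop was 35 kb from the eGFP-YAP control one. The highest-scoring WT control loop, at the 99.9th percentile, ran 90 kb from chr11:2045001-2050000 to chr11:2135001-2140000, which holds 5′ ends of shorter IGF2 transcripts, and no other list had it.

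Across the lists, 10 loops ended at chr11:2145001-2160000 in IGF2 (2, 2, 4 and 2 in the order WT control, WT sorbitol, eGFP-YAP control, eGFP-YAP sorbitol), 9 at chr11:2525001-2540000 in KCNQ1 and 9 at chr11:2880001-2900000 at CDKN1C. H19, the long non-coding RNA expressed from the maternal copy, had no loop anchor at its 5′ end (2004552) in any list. The nearest anchors lay 40.4, 75.4, 70.4 and 79.6 kb from it. The H19 gene and the 10 kb upstream of it held 0 matches to the CTCF motif with at most 1 mismatch and 11 with 2 mismatches, which says only that these letters are not in that window.

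**Figure D2:**
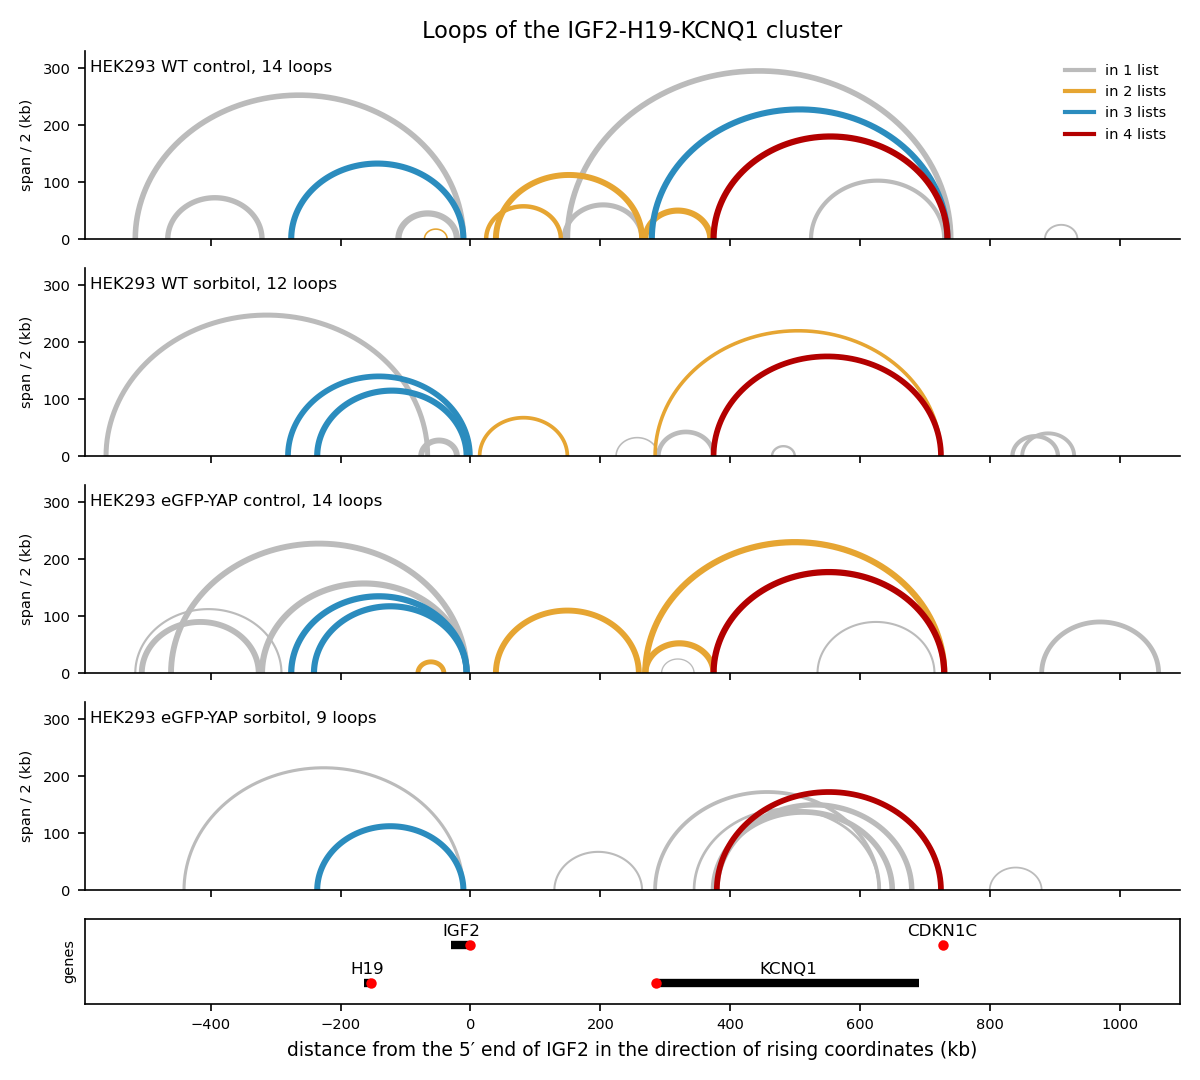
Loops of the IGF2-H19-KCNQ1 cluster in the 4 lists, 1 panel per list, as arcs between anchor centres (x axis, kb from the IGF2 5′ end) with height equal to the span divided by 2 (y axis, kb). Arc width rises with the score percentile, colour gives the number of lists that hold a matching loop, and the lowest panel shows the genes with a red point at each 5′ end. The arc from KCNQ1 to the region of CDKN1C is present in every panel, most arcs over H19 end at IGF2, and none ends at H19.

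In the DLK1-MEG3 cluster the loop in all 4 lists began in MEG3, a long non-coding RNA expressed from the maternal copy, and ended beyond DIO3, a deiodinase gene, at chr14:101625001-101630000. It had the same coordinates in WT control, WT sorbitol and eGFP-YAP control (left anchor chr14:100850001-100855000), at the 63.0th, 51.3rd and 57.6th percentile. In eGFP-YAP sorbitol the left anchor lay 5 kb to the left and the percentile was 76.8, the highest of the cluster in that list. In the lists that share the left anchor, the plus-strand motif in the MEG3 exon faces the minus-strand motif at the far end, 775 kb away. The left anchor of eGFP-YAP sorbitol held no match. The 10 kb stretch at this far side, chr14:101620001-101630000, held an anchor of 9 loops in all (3, 1, 4 and 1 in the list order above).

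Except in eGFP-YAP sorbitol, the MEG3 anchor of this loop also holds MIR770, a microRNA gene inside MEG3. Its product is printed with its seed, bases 2 to 8, in capitals (RefSeq, GRCh38.p14). A further anchor of the cluster, chr14:101020001-101025000 in an eGFP-YAP control loop, holds MIR379, MIR411 and MIR299 of the large microRNA cluster on this chromosome, and 2 of their products share a seed.
hsa-miR-770-5p: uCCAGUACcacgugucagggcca
hsa-miR-379-3p: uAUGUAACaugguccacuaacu
hsa-miR-411-3p: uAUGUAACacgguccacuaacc
hsa-miR-379-5p: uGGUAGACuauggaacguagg
hsa-miR-411-5p: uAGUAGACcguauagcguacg
The loop with MIR379 and MIR411 spanned 600 kb, ended at the same far side (chr14:101620001-101625000), stood at the 25.9th percentile and was in no other list.

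DLK1, which encodes a transmembrane protein related to Notch ligands and is expressed from the paternal copy, had its 5′ end (100725705) in an anchor of 1 WT control loop. That loop ran 895 kb from chr14:100725001-100730000 to chr14:101620001-101625000 at the 38.9th percentile. Its only partner was in eGFP-YAP sorbitol, from the body of DLK1 at chr14:100730001-100735000 to chr14:101610001-101615000, at the 32.4th percentile. That list held no other loop of the cluster besides the MEG3 loop. A loop from WDR25 to the stretch between BEGAIN and DLK1 was in 3 lists and was the highest-scoring of the cluster in both controls, at the 92.6th percentile in WT and the 96.0th in eGFP-YAP. In WT sorbitol it stood at the 80.2nd percentile, and the nearest eGFP-YAP sorbitol loop was 265 kb from that one. RTL1, a retrotransposon-derived gene transcribed opposite to MEG8, had its 5′ end in 3 WT control loops and 1 eGFP-YAP control loop and in no sorbitol loop. In WT sorbitol the highest-scoring loop, at the 97.8th percentile, was of another kind: it ran 1215 kb from BEGAIN (chr14:100550001-100555000) to PPP2R5C, a regulatory subunit gene of protein phosphatase PP2A (chr14:101765001-101770000), and no other list held it.

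**Figure D3:**
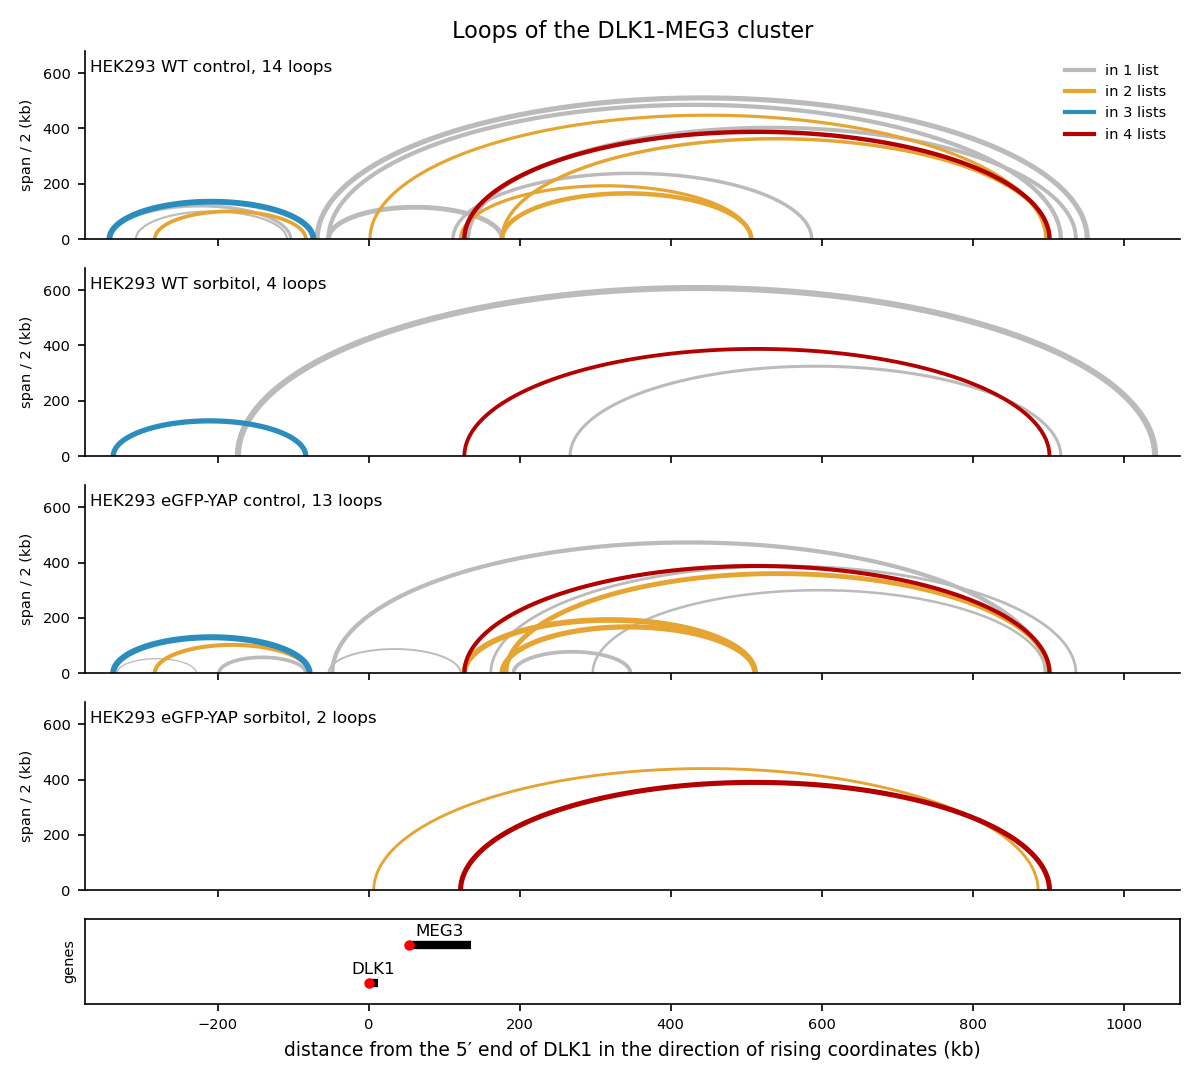
Loops of the DLK1-MEG3 cluster in the 4 lists, drawn as arcs between anchor centres (x axis, kb from the DLK1 5′ end) with height equal to the span divided by 2 (y axis, kb); arc width follows the score percentile and colour the number of lists. The control panels hold 14 and 13 arcs and the sorbitol panels 4 and 2, and the arc from MEG3 to its far end is in all 4.

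GNAS encodes the alpha subunit of the stimulatory G protein and has several promoters with different imprinting. Its annotated 5′ end (58839718) is that of its most upstream transcript and lay in no anchor. The RefSeq start of GNAS (58888413) lies 48.7 kb further on, where many of its transcripts start, and the loop in all 4 lists began there. In WT control it ran from chr20:58885001-58890000, which holds the RefSeq start, to chr20:59025001-59030000 at the 67.1st percentile. In the other lists it ran from chr20:58890001-58895000 to chr20:59030001-59035000, which holds the 5′ end of ATP5F1E, the gene of the epsilon subunit of mitochondrial ATP synthase. It stood at the 95.7th percentile in WT sorbitol, the 29.6th in eGFP-YAP control and the 80.7th in eGFP-YAP sorbitol. In both lines this loop ranked higher in the sorbitol list than in the control list and was the highest-scoring of the cluster there. A change of rank between lists of different length is not a change of contact strength.

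Inside that loop lay NELFCD, which encodes a subunit of the negative elongation factor. A loop from the GNAS transcript starts to NELFCD was in WT control (10.6th percentile), WT sorbitol (55.2nd) and eGFP-YAP control (57.0th). The only loop that both sorbitol lists had and neither control had was also here. Such loops were 1 of 23 at the clusters in WT sorbitol and 1 of 19 in eGFP-YAP sorbitol. Their share was not computed for all loops of the lists, so it is not a result about the clusters. The loop ran from the NELFCD 5′ end at chr20:58980001-58985000 to PRELID3B at chr20:59040001-59045000 in WT (61.3rd percentile) and to ATP5F1E at chr20:59030001-59035000 in eGFP-YAP (41.7th). Each of its anchors held the 5′ end of the gene named, and it spanned 60 and 50 kb. The nearest control loops were 95 kb away in WT and 90 kb in eGFP-YAP. A loop from the GNAS intron with the plus-strand motif to ZNF831, a zinc finger gene, was in WT control, eGFP-YAP control and eGFP-YAP sorbitol at the 72.4th, 72.7th and 74.4th percentile, and was the highest-scoring of the cluster in both controls. The nearest WT sorbitol loop was 175 kb from the WT control one.

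**Figure D4:**
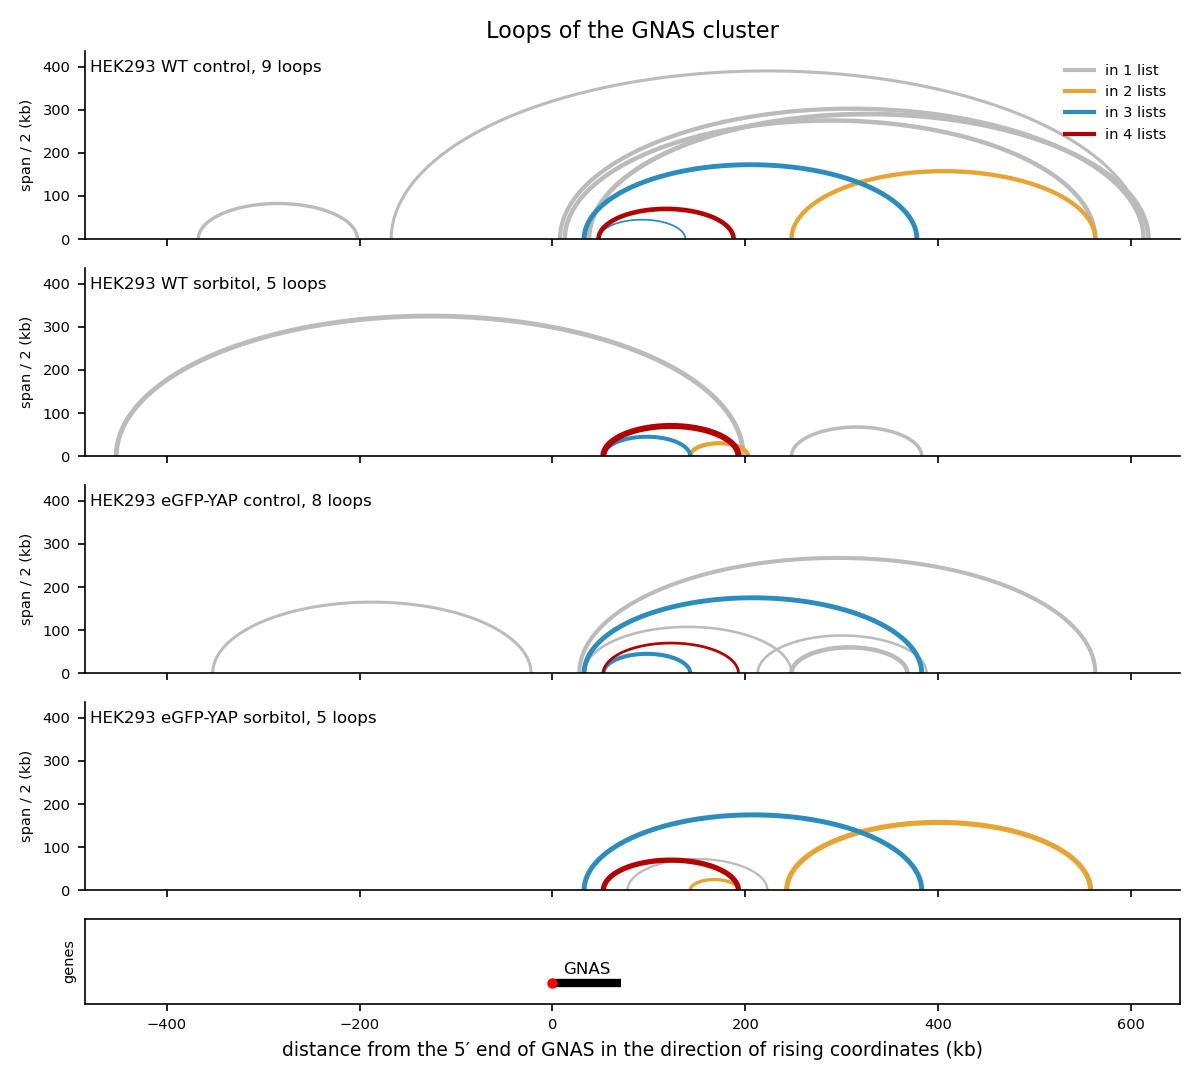
Loops of the GNAS cluster in the 4 lists, drawn as arcs between anchor centres (x axis, kb from the GNAS 5′ end) with height equal to the span divided by 2 (y axis, kb); arc width follows the score percentile and colour the number of lists. The arc of 140 kb from the GNAS transcript starts is in all 4 panels, and the short arc beside it (60 and 50 kb) is in the sorbitol panels only.

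MEST encodes a member of the alpha/beta hydrolase family and is expressed from the paternal copy. Its 5′ end (130486171) lay in no anchor, and only 1 loop ended in the gene body, in WT control at chr7:130500001-130505000 (22.8th percentile). Most loops passed over MEST, and 14 of the 18 had an anchor in chr7:130230001-130260000 (4, 2, 6 and 2 in the list order above). The loop from there to chr7:130830001-130835000 was the highest of the cluster in WT control (63.2nd percentile), with partners in WT sorbitol (580 kb long, the highest there at the 34.1st percentile) and eGFP-YAP sorbitol (54.2nd). In eGFP-YAP the highest-scoring loop of both lists was another, from KLHDC10, a kelch domain gene, to KLF14, a Krüppel-like transcription factor gene, at the 65.5th percentile in control and, ending 1 bin beyond the KLF14 5′ end, the 69.5th with sorbitol. KLF14 had its 5′ end in an anchor of 1 loop each in WT sorbitol, eGFP-YAP control and eGFP-YAP sorbitol.

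**Figure D5:**
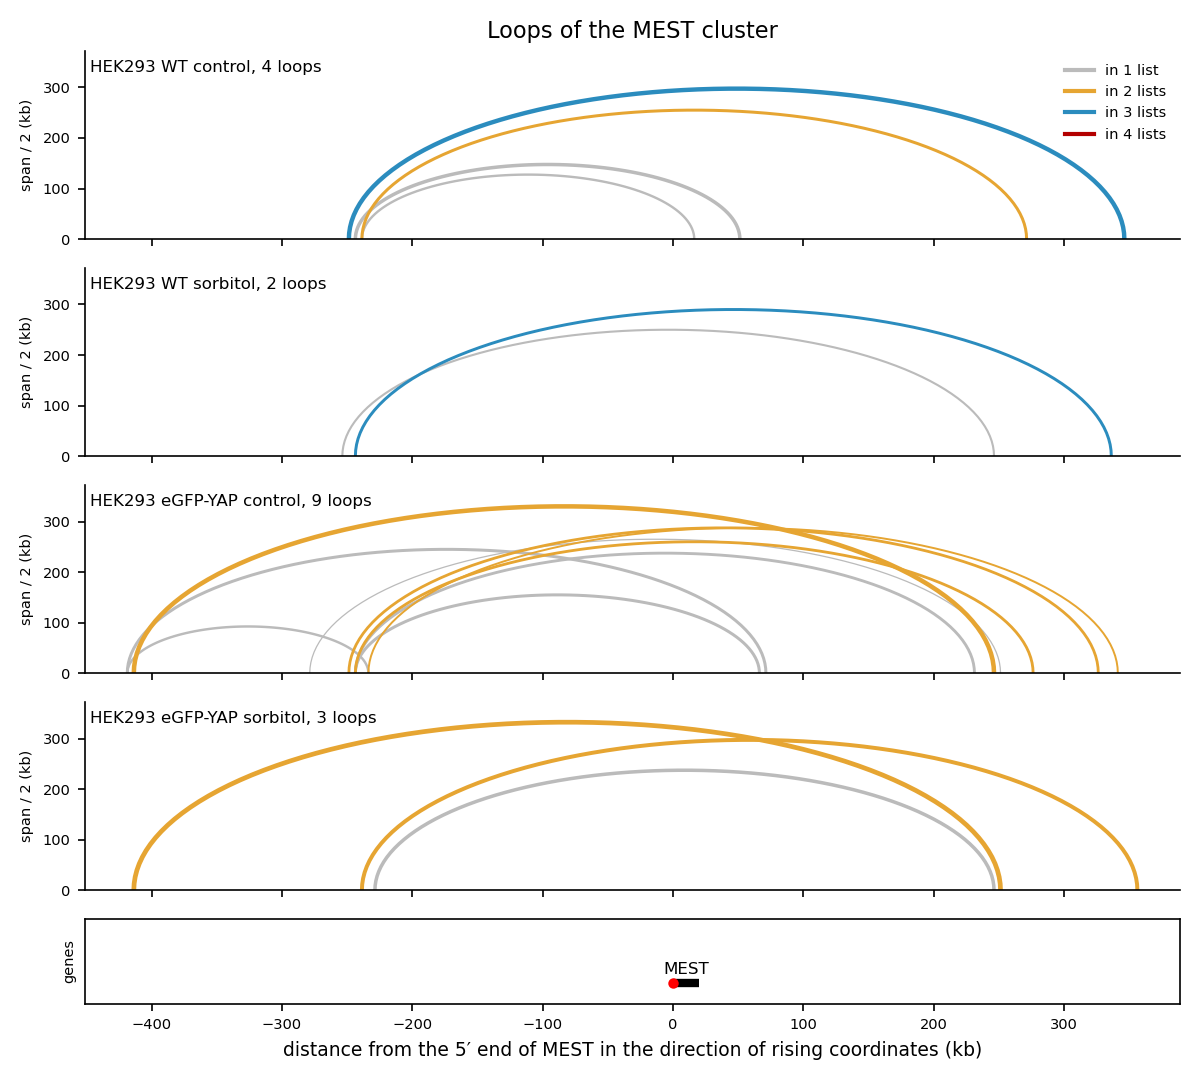
Loops of the MEST cluster in the 4 lists, drawn as arcs between anchor centres (x axis, kb from the MEST 5′ end) with height equal to the span divided by 2 (y axis, kb); arc width follows the score percentile and colour the number of lists. Nearly all of the 4, 2, 9 and 3 arcs pass over MEST, and 14 of the 18 share the anchor region on the left.

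At PEG3, a zinc finger gene expressed from the paternal copy, the single control loop was the same in both lines. It ran from chr19:56745001-56750000 in WT (20.4th percentile) and chr19:56750001-56755000 in eGFP-YAP (77.2nd) to chr19:57085001-57090000, and passed over PEG3 without ending in it. The nearest loops of the sorbitol lists were 770 kb (WT) and 755 kb (eGFP-YAP) from the WT control one. PEG10, a gene derived from a retrotransposon and expressed from the paternal copy, shares its start region with SGCE, the gene of epsilon-sarcoglycan. Its highest-scoring loop in both controls ran over PEG10 to the 5′ end of ASB4, from chr7:94455001-94460000 in WT (90.2nd percentile) and chr7:94445001-94450000 in eGFP-YAP (84.1st), and was 1020 and 1030 kb long. In WT control 1 loop ended in SGCE, at chr7:94640001-94645000 (10.4th percentile), 11.3 kb from the PEG10 5′ end. The nearest sorbitol loop was 755 kb from a WT control loop of PEG10 and 1010 kb from an eGFP-YAP one.

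The number of loops with an anchor within 250 kb of a gene can be set against all 19970 protein-coding genes, for which the median was 5, 2, 7 and 2 in the list order above. DLK1 and MEG3 had the same 14 loops in WT control, more than 97.6% of coding genes. In eGFP-YAP control they had 12 each, nearly all of them shared, more than 86.3%. With sorbitol DLK1 had 3 in WT and 2 in eGFP-YAP, against medians of 2. IGF2 had 8, 6, 6 and 3, H19 had 7, 5, 8 and 2, KCNQ1 had 8, 6, 6 and 6, and CDKN1C had 5, 5, 4 and 6. KCNQ1 and CDKN1C were thus not below their eGFP-YAP control counts in eGFP-YAP sorbitol, but most of their loops in that list were the same loops. The median over coding genes was 7 in eGFP-YAP control and 2 in eGFP-YAP sorbitol. How many coding genes also kept their count was not computed, so no trait particular to these genes is shown. PEG3, with 1 loop in each control list, had fewer than most genes, and its 0 with sorbitol was shared by 25.9% of coding genes in WT and 22.6% in eGFP-YAP, as was that of PEG10.

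Of the 10 listed genes, 2 had their 5′ end in an anchor in WT control (CDKN1C and DLK1, against 8.28% of all protein-coding genes) and 2 in WT sorbitol (IGF2 and KCNQ1, against 12.7%). In eGFP-YAP it was 1 in control (CDKN1C, against 13.1%) and 1 with sorbitol (KCNQ1, against 13.7%). By the start of any of their transcripts, 5 of the 10 had one in an anchor in WT control (IGF2, CDKN1C, DLK1, MEG3 and GNAS, against 17.5%) and 4 in WT sorbitol (IGF2, KCNQ1, CDKN1C and GNAS, against 18.6%). In eGFP-YAP control these were 3 (CDKN1C, MEG3 and GNAS, against 23.9%), and in eGFP-YAP sorbitol 5 (IGF2, KCNQ1, CDKN1C, MEG3 and GNAS, against 19.3%). H19, MEST, PEG3 and PEG10 had none in any list by either start. Genes with many transcripts have more starts that an anchor can hold. The listed genes and the other genes of the clusters include long non-coding RNAs (H19, MEG3 and GNAS-AS1 among them). The shares they are set against are of protein-coding genes only, so the gene sets are unlike. Among 34 other genes of the clusters, the 5′ end of the gene itself lay in a WT control anchor for 3 (SLC22A18, RTL1 and GNAS-AS1, against 8.28% of all protein-coding genes). In WT sorbitol it did for 5 (TH, TRPM5, NAP1L4, NELFCD and KLF14, against 12.7%). In eGFP-YAP control it did for 4 (RTL1, NELFCD, KLF14 and PPP1R9A, against 13.1%), and in eGFP-YAP sorbitol for 3 (TRPM5, NELFCD and KLF14, against 13.7%). Of all anchors of the clusters, 11 of 92 in WT control held a protein-coding gene start (12.0%, 6.81 to 20.2, against 5.74% of the list) and 11 of 46 in WT sorbitol did (23.9%, 13.9 to 37.9, against 21.3%). In eGFP-YAP these were 14 of 102 in control (13.7%, 8.36 to 21.7, against 7.70%) and 8 of 38 with sorbitol (21.1%, 11.1 to 36.3, against 26.4%). At this anchor width both control shares exceeded those of their lists by more than counting error and neither sorbitol share did. The loops were chosen for an anchor near a gene 5′ end and the lists were not. Shares of gene starts, at either anchor width, are therefore not independent of the rule, and no excess in them is a result about imprinted genes. In anchors widened by 5 kb on each side WT control still exceeded its list (23.9%, 16.4 to 33.6, against 15.0%) and eGFP-YAP control did not (22.5%, 15.5 to 31.6, against 18.7%). With genes of all types in the widened anchors WT control (55.4%, 45.3 to 65.2, against 31.7%) and eGFP-YAP control (48.0%, 38.6 to 57.6, against 35.2%) exceeded their lists. WT sorbitol did as well (69.6%, 55.2 to 80.9, against 54.5%), and eGFP-YAP sorbitol did not (52.6%, 37.3 to 67.5, against 59.4%).

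The CTCF motif was present, with at most 1 mismatch on either strand, in 37 of the 92 anchors of the clusters in WT control (40.2%, 30.8 to 50.4), against 24.9% of the list's anchors. It was present in 16 of 46 in WT sorbitol (34.8%, 22.7 to 49.2, against 21.2%), 40 of 102 in eGFP-YAP control (39.2%, 30.3 to 48.9, against 34.1%) and 9 of 38 in eGFP-YAP sorbitol (23.7%, 13.0 to 39.2, against 28.2%). Both WT lists exceeded their backgrounds by more than counting error and neither eGFP-YAP list did. The excess in WT was lost when anchors were widened by 5 kb on each side, to 57.6% (47.4 to 67.2) against 50.1% in control and 52.2% (38.1 to 65.9) against 45.4% with sorbitol. It was also lost when no mismatch was allowed, at 8.70% (4.47 to 16.2) against 5.84% and 8.70% (3.43 to 20.3) against 4.45%. With at most 2 mismatches it remained, at 85.9% (77.3 to 91.6) against 71.4% in control and 89.1% (77.0 to 95.3) against 74.6% with sorbitol. Of all 5 kb bins of the genome, 8.69% held a match. Where each anchor of a loop held motifs on 1 strand only, they pointed towards each other in 3 of 7 loops in WT control (against 67.4% of the list), 2 of 3 in WT sorbitol (against 54.4%) and 6 of 9 in eGFP-YAP control (against 76.2%). The 3 convergent WT control loops included those from WDR25 and from MEG3 printed above. No eGFP-YAP sorbitol loop at the clusters could be scored, the list's value being 71.3%.

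The 250 kb limit left out loops close to those taken. The farthest loops taken lay 246, 245, 248.8 and 248.8 kb from a listed 5′ end in the list order above, and the nearest left out lay 250.3, 321, 255.3 and 258.8 kb away, at GNAS or MEST. The median distance of the loops taken was 50.7, 70.6, 80.7 and 55.3 kb. Loops left out next to the limit stood between the 31.7th and the 68.1st percentile.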

How the data were processed

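In situ Hi-C loop lists of 4 conditions were used. Per the labels, 14 of the 32 samples belong to these conditions, and the other 18 were not analysed here. The deposited anchor coordinates are those of SIP, a loop caller named by the file headers, in bins of 5 kb. The deposited peak score comes from the authors' caller on an unstated scale and was ranked within 1 list only. A fraction was also deposited, the caller's probability of enrichment. Its lowest value was 0.900, and no loop was dropped for it. The submitters' processing notes name hg38 and GRCh38 as builds, and Trim Galore, FastQC, MultiQC and Salmon 1.10.0 as tools, with no role given. The aligner, the caller's settings and the depth are not given in the sources used here.

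Gene 5′ ends were taken from GENCODE release 44. Anchors were put in ascending order, which changed 4 loops. Loops matched when both anchor starts lay within 10 kb. Since each list is matched to each other list directly, a loop can match more lists than its partner does. Shares have Wilson intervals, ratios of counts exact Clopper-Pearson intervals, and medians intervals from order statistics. The CTCF consensus motif was searched on both strands, and overlapping matches were kept. Matching was tested on well separated loops of the WT control list whose anchors were moved by known distances. Motif search was tested on sites planted in random sequence of A and T only. No test between conditions was made.

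The loops, genes and lists were chosen with earlier results of these data known. Named in every cluster were the loops in all 4 lists, those in both sorbitol lists and neither control, those with the 5′ end of a listed gene in an anchor, and the highest-scoring loop of each list. The other loops named were chosen after their values were seen. Motif matches were printed for anchors of loops in at least 3 lists. Python 3.11.15, NumPy 2.4.6, pandas 2.3.3, SciPy 1.17.1 and Matplotlib 3.10.9 were used. The alternatives were other windows, transcript 5′ ends, both anchors in the window, the upper 50% by score, merged neighbours, other matching distances, other motif limits, wider anchors, all gene types, the other line's control list and omission of the largest cluster.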

Additional observations from a re-analysis of the deposited data

Results flagged for a closer look

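Of 29 contrasts between sorbitol and control that could be computed in both lines, 4 had opposite signs in WT and eGFP-YAP. With 1 list per condition these differences were not tested. The median span of the IGF2-H19-KCNQ1 loops was lower by 65 kb with sorbitol in WT (a difference of -65 kb, from 175 to 110 kb) and higher by 62.5 kb in eGFP-YAP (from 222.5 to 285 kb). The median score percentile of the DLK1-MEG3 loops differed by 14.3 in WT, with 4 sorbitol loops, and by -2.58 in eGFP-YAP, with 2. At GNAS the same difference was -0.663 in WT and 28.5 in eGFP-YAP. At MEST it was -14.4 in WT, with 2 sorbitol loops, and 22.6 in eGFP-YAP, with 3.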

How the results depend on the processing

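Of 134 values under alternatives, 92 lay within the interval of the value reported, or within 1.5 times the count, and 42 did not. No paired analysis was possible because the lists are pooled and carry no replicate numbers. In the order WT control, WT sorbitol, eGFP-YAP control and eGFP-YAP sorbitol, requiring both anchors in the window left 15, 12, 17 and 7 loops with median spans of 140, 82.5, 215 and 140 kb. The upper 50% by score left 28, 15, 28 and 11 loops. A window of 100 kb left 13 loops in WT sorbitol and 27 in eGFP-YAP control, and 38.5% of the WT sorbitol loops then had no control partner. Without IGF2-H19-KCNQ1, WT sorbitol had 11 loops with a median span of 500 kb and eGFP-YAP sorbitol had 10 loops. With identical anchor bins, 2.17% (WT) and 3.92% (eGFP-YAP) of control loops were called again, and 95.7% and 89.5% of sorbitol loops had no control partner. These shares were not computed for all loops of the lists, so they cannot be set against them. Against the other line's control list, 39.1% and 35.3% of control loops were found again (against 40.2% and 32.2% of the lists). When that list was shortened to the length of the sorbitol list by score, 28.3% and 19.6% were, with no value computed for all loops.

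The CTCF motif share was 8.70%, 8.70%, 13.7% and 2.63% with no mismatch, 85.9%, 89.1%, 79.4% and 78.9% with at most 2 mismatches, and 57.6%, 52.2%, 62.7% and 39.5% in anchors widened by 5 kb. In widened anchors the motifs pointed towards each other in 83.3% of 6 scored WT control loops, and gene starts were in 23.9% (WT control), 47.8% (WT sorbitol) and 22.5% (eGFP-YAP control) of anchors. With genes of all types they were in 23.9% of WT control and 22.5% of eGFP-YAP control anchors. Motif direction had no value for eGFP-YAP sorbitol, nor for either WT list without mismatches, because no loop could be scored. The depth of the lists is unknown, so counts this small limit every comparison between clusters.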
